A study of Mus musculus with 6 samples.

Results

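The genes described here are 9 leukocyte adhesion genes of mouse lung endothelial cells (ECs), namely Glycam1, Chst4, Madcam1, Fut7, Sele, Selp, Vcam1, Icam1 and Icam2, out of 24063 gene symbols in the count tables. They were listed by symbol as selectins, enzymes or carriers of selectin ligands, and adhesion receptors, and all 9 were found. Glycam1 was chosen by its measured counts, which were 0 in sham and above 0 after pneumonectomy (PNX, surgical removal of the left lung), so its levels are a description and carry no test. The other 8 were listed by function, although earlier results of these data were known when the list was drawn up.

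RNA was sequenced from ECs isolated with anti-CD31 magnetic beads from lungs of C57BL6 mice, with 3 sham and 3 PNX libraries collected 7 days after surgery. Each library combined 2 male mice. The labels give no mutant allele and no agent, and sham mice underwent the thoracotomy alone. The labels give an age of 8 weeks, and the methods give an older age at surgery. Bead selection enriches CD31-positive cells and leaves other cells in the fraction, and in such bulk RNA fewer cells of a type and less RNA per cell cannot be told apart.

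Leukocytes leave the blood in steps. Selectins on activated endothelium (E-selectin from Sele, P-selectin from Selp) and L-selectin on the leukocyte bind sialylated, fucosylated sugars and let the cell roll, and integrins then bind the immunoglobulin-type receptors ICAM-1, ICAM-2 and VCAM-1 and arrest it. In the high endothelial venules of lymph nodes, GlyCAM-1 is a secreted mucin that carries L-selectin ligands. The fucosyltransferase encoded by Fut7 and the sulfotransferase encoded by Chst4 build those sugars, and MAdCAM-1 is the addressin of gut-associated venules. In the lung most leukocyte arrest occurs in capillaries, with constitutive ICAM-1 and ICAM-2.

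The total count per library ranged from 29526989 to 81282871, and a transcript with 0 counts in a sham sample could still have had up to 3, which is 0.0207 CPM (the count as a share of the TMM-scaled library size) in the earlier and 0.0932 CPM in the later deposit. Replicates 1 and 2 of both groups are marked in the labels as re-used, and replicate 3 is not. From this mark the former are called the earlier deposit here and the latter the later, names that the labels do not give. Within a group, replicates 1 and 2 differed by a chi-square per degree of freedom of 1.75 (sham) and 1.57 (PNX), against 67.9 to 86.4 for pairs with replicate 3, so they were summed and counted as 1 sample. This left n = 2 samples per group, 1 from each deposit. The methods describe 3 pools per group, of 2 mice each, so the summing rests on the near-identical counts. In fits with these 4 samples, p-values measure only the spread between them. Fits with 6 libraries count the near-identical replicates 1 and 2 as independent, so their p-values can be too small. Known endothelial genes were abundant (10 genes, 4200 to 7270 CPM summed over the list), and their sum was lower after PNX, at 0.737 times sham in the earlier and 0.817 times in the later deposit. Calcrl and Ptprb were its largest parts in sham replicate 1, at 2030 and 1608 CPM. The list median log2 fold change of PNX over sham was −0.33, but Tie1 was at −0.0010 and Sox17 at 0.15.

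Upstream sequence is shown for Glycam1, which was most different between libraries, the selectins Sele and Selp, and Madcam1, which stayed at or near 0. Sele and Selp were higher after PNX in the earlier deposit. So was Chst4, whose sequence is not shown. RefSeq entries (GRCm38.p6) matched 7 of the 9 genes, not Vcam1 and Icam2. The sequences run 5′ to 3′ on the gene's strand over the 250 bases before the RefSeq transcription start, and capitals mark matches on either strand to a loose form of the NF-kappaB motif, GGG and CC separated by 5 bases of any kind.
Glycam1, minus strand, chr15:103565082-103565331: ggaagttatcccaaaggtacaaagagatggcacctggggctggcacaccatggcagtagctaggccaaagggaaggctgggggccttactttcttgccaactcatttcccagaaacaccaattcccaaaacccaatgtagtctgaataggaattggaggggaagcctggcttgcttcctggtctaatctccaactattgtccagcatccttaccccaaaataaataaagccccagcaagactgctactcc
Sele, plus strand, chr1:164047984-164048233: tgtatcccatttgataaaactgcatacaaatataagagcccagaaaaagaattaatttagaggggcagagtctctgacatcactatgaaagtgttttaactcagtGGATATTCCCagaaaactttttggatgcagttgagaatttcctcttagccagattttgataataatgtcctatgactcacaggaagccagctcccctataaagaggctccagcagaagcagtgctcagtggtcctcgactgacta
Selp, plus strand, chr1:164115014-164115263: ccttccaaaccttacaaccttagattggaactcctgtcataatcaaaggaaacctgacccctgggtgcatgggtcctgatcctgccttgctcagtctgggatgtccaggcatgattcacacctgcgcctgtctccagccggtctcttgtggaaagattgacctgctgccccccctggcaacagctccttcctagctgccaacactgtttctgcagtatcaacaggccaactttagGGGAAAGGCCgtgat
Madcam1, plus strand, chr10:79664309-79664558: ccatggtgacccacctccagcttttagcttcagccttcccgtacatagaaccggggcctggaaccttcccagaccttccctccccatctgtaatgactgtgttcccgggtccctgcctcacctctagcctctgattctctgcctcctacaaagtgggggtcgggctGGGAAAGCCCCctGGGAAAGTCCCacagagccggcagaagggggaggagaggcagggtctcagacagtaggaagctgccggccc

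This kappaB form was found upstream of Sele, Selp, Icam1 and Madcam1, and not in the windows of Glycam1, Chst4 or Fut7. In Sele it lay 145 to 136 bases before the start and overlapped a match to TTCNNNGAA, a form of the STAT motif. In Selp it lay 15 to 6 bases before the start. Madcam1 held 2 stretches, each of 2 overlapping matches. Of 32851 windows of the same length in the table, 45.8% held the kappaB form, so a match is common. TTCNNNGAA was present in 7.02% of windows and in those of Sele, Icam1 and Glycam1, and TATAAA in 12.4% and in that of Sele.

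Levels per transcript length, as the deposited TPM, a length-corrected share of each library, spanned several orders of magnitude among the 9 genes. In sham, Icam2 was highest at 440 to 666 TPM over the 3 libraries, followed by Icam1 at 236 to 257 TPM and Vcam1 at 57.5 to 60.8 TPM. Selp (8.56 to 11.4 TPM), Sele (6.45 to 8.52 TPM) and Chst4 (5.20 to 12.7 TPM) lay close together, and the range of Chst4 overlapped those of both selectins. Fut7 was lower at 1.45 to 1.72 TPM, and Glycam1 and Madcam1 were listed at 0 in every sham library. Icam2, Icam1 and Vcam1, which bind leukocyte integrins, were thus above the selectins and the sugar-modifying enzymes, while Madcam1, which also binds an integrin, was at 0.
After PNX the order by median was the same for the first 7 genes, while the ranges of Selp (11.2 to 19.0 TPM) and Sele (8.29 to 11.7 TPM) now overlapped. In the later deposit Chst4 stood above both selectins in either group, at 12.7 TPM against 11.4 TPM for Selp and 8.52 TPM for Sele in sham replicate 3, and at 20.6 TPM against 11.2 and 8.29 TPM in PNX replicate 3. Glycam1, at 18.7 TPM, also stood above both selectins in PNX replicate 3.

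**Figure D1:**
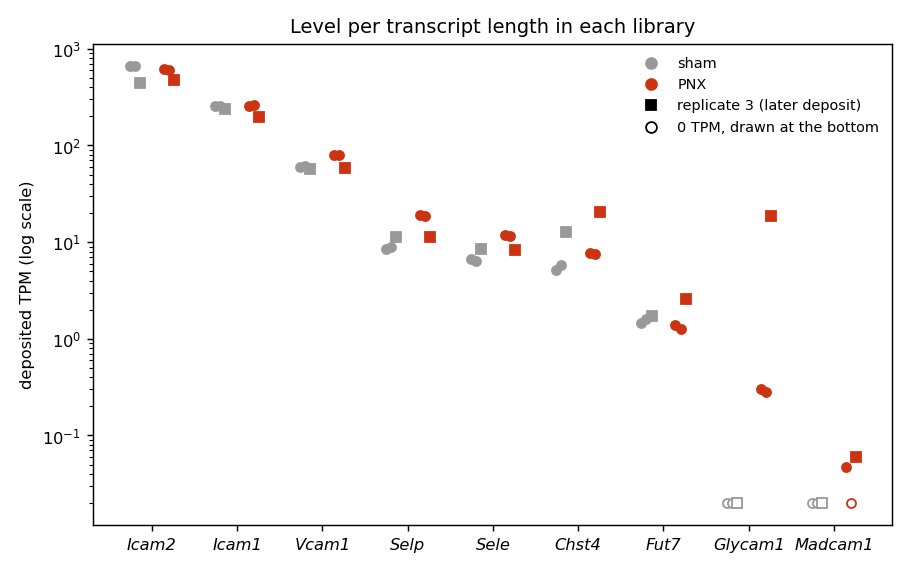
Deposited TPM (log axis) of the 9 genes in each of the 6 libraries, with sham in grey, PNX in red, squares for replicate 3 and open symbols for 0 TPM. Icam2 and Icam1 lie at 198 TPM or more in all libraries, and Glycam1 reaches 18.7 TPM in PNX replicate 3 only.

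Glycam1 was almost confined to 1 library. It lies on the minus strand of chromosome 15 of GRCm38 from 103562759 to 103565081 (GENCODE vM21), with 4 exons and no overlapping gene. Its transcript rows, NM_001289587 and NM_008134, had identical counts and were counted once. Sham replicates 1, 2 and 3 had 0 counts each, whereas PNX replicates 1, 2 and 3 had 6, 5 and 147. PNX replicate 3 thus held 93.0% of its 158 counts. In CPM the PNX libraries measured 0.0843, 0.0796 and 5.15, and all 3 lay above the sham libraries. A count of 0 allows up to 3 counts in the sham sample of the same deposit. Against that limit, the observed level of Glycam1 after PNX was 3.99-fold higher in the earlier deposit and 55.4-fold higher in the later one. Between the PNX samples it differed by 62.6 times (exact 95% interval 34.0 to 128), with the later sample higher. The folds over the sham limit leave out the counting error of the PNX counts, and the interval covers counting error only.

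No other gene met the share given next. Glycam1 was chosen by its counts in these libraries, so its place is a description and carries no test. Among 16163 genes with at least 50 counts over the 6 libraries, Glycam1 was the 1 gene with at least 90% of its summed CPM in PNX replicate 3 (96.9%). Likeness was measured as the share of the summed CPM that falls in the same libraries for both genes. The closest were Sntg1 (70.0% shared), Il17a (69.2%), Scn10a (66.8%), Pcdh15 (64.9%) and Hpca (64.5%). Of these, Il17a, a T cell cytokine, had 11, 4 and 25 counts in the sham libraries and 5, 4 and 62 in the PNX libraries. Unlike Glycam1, all 5 had counts in every sham library, and all 5 were ranked over 6 libraries that were counted as 4 samples in the tests.

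GlyCAM-1 is made in lactating mammary gland and in high endothelial venules, and genes of both were examined. Of 6 milk protein genes, Csn1s1, Csn1s2a and Csn2 had 0 counts in all libraries, Csn3 had 0 in sham and 5, 2 and 3 in PNX, and the list summed to 0.117 to 0.342 CPM in sham and 0.197 to 0.239 CPM in PNX. The high endothelial venule and lymphoid list was mixed. Ccl19 and Nkx2-3 had 0 counts and Ccl21a 1 count in all 6 libraries together. Reads of Ccl21a could be split among its near-identical copies. In contrast, the chemokine Cxcl13 was at 1.46 to 2.89 CPM in sham and 11.7 to 28.1 CPM after PNX, and Enpp2, the lysophospholipase autotaxin, at 68.8 to 76.1 CPM in sham and 79.4 to 135 CPM after PNX. Both were highest in PNX replicate 3, but Cxcl13 was already at 12.3 and 11.7 CPM in PNX replicates 1 and 2. In the same list Ltbr was also higher in all PNX libraries, whereas Cxcr5, Ccr7 and Ltb were lower in all of them. Madcam1, the addressin of mucosal venules (chromosome 10, 79664559 to 79668537, plus strand, 5 exons), had 0 counts in every sham library and 2, 0 and 1 in the PNX libraries. With at most 3 counts in each group no ratio within a deposit was computed and no expression above the detection limit could be shown. Fits without a filter on low counts did not call it. B cell markers were present, and their sum was lower after PNX in both deposits, at 114 to 144 CPM in sham and 68.8 to 85.5 CPM after PNX. The part of these genes and cells in the Glycam1 result was not tested.

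The enzymes were detected in all libraries. Chst4, the sulfotransferase of L-selectin ligands (chromosome 8, 110029153 to 110039740, minus strand, 2 exons), had 331, 328 and 344 counts in sham and 462, 397 and 484 in PNX replicates 1, 2 and 3. This gave 4.29, 4.79 and 10.7 CPM in sham and 6.49, 6.32 and 17.0 CPM after PNX. Within each deposit every PNX library lay above its sham libraries, but the sham library of the later deposit lay above both PNX libraries of the earlier one, so the groups overlapped. Chst4 was 1.42 times higher after PNX in the earlier deposit (exact 95% interval 1.28 to 1.57) and 1.59 times in the later (1.38 to 1.83). The difference between deposits was larger, with Chst4 2.35 times higher in the later deposit in sham (2.06 to 2.68) and 2.64 times after PNX (2.36 to 2.95). Over the 2 samples of a group Chst4 averaged 7.61 ± 4.34 CPM (SD, n = 2) in sham and 11.7 ± 7.46 CPM (SD, n = 2) after PNX. In edgeR the log2 fold change was 0.62 (standard error 0.63, edgeR adjusted p = 0.771). Adding the deposit as a replicate block gave 0.58 (standard error 0.12, edgeR adjusted p = 0.0247). The study called genes at adjusted p below 0.01 with a change above 1 in size on the log2 scale, and Chst4 passed neither threshold in these fits. With the block and 6 separate libraries its edgeR adjusted p was 0.00114 at a log2 fold change of 0.56, which is past the first threshold only.

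Fut7, the fucosyltransferase of selectin ligands (chromosome 2, 25423267 to 25426374, plus strand), has 7 transcript rows with nearly equal counts, and whether these share reads is not given. In its row with the highest total, NM_001289453, it had 87, 85 and 44 counts in sham and 78, 63 and 58 in PNX, or 1.13, 1.24 and 1.37 CPM against 1.10, 1.00 and 2.03 CPM. Here too PNX replicate 3 was the highest library, and the groups overlapped. The ratio of PNX to sham was 0.891 in the earlier deposit (0.708 to 1.12) and 1.49 in the later (0.989 to 2.26), and both intervals include 1. The log2 fold change, fitted on the sum of its rows that are not identical, was 0.26 (standard error 0.36, edgeR adjusted p = 0.844), or 0.25 from the row of the highest total alone (edgeR adjusted p = 0.880). Glycam1, Chst4 and Fut7 all had their highest level in PNX replicate 3, as did other genes such as Cd34, Col1a1 and Msln. The share of all genes that were highest in that library was not computed. Without that library the fit sets PNX of the earlier deposit against sham of both deposits, and the log2 fold change was −0.23 for Chst4 (edgeR adjusted p = 0.991) and −0.27 for Fut7 (edgeR adjusted p = 0.979). Within the earlier deposit alone Chst4 was higher after PNX, by the 1.42 times given above. Without sham replicate 3, the unpaired log2 fold change of Chst4 was 1.35 (edgeR adjusted p = 0.529).

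**Figure D2:**
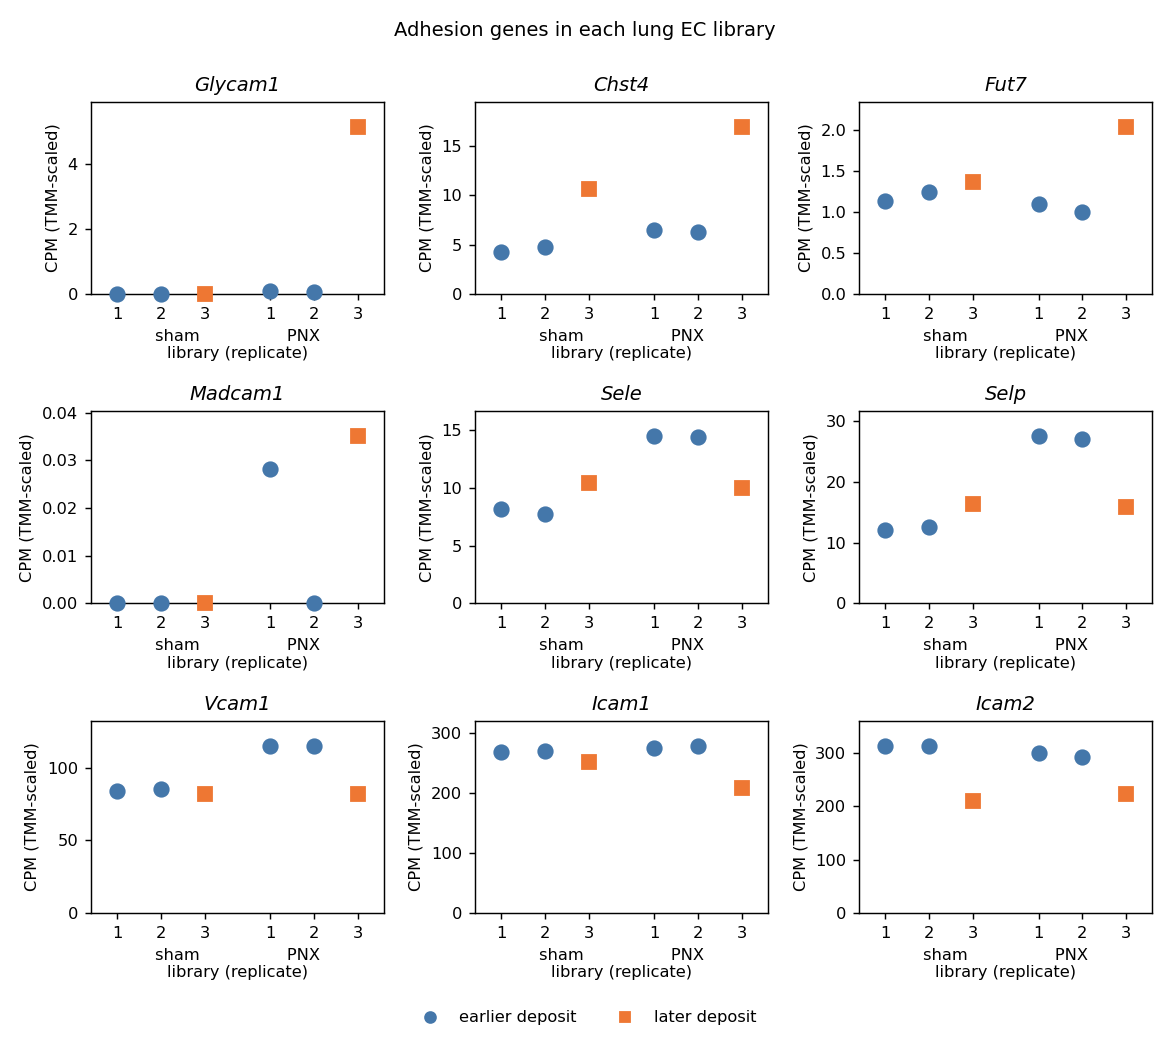
CPM (TMM-scaled, linear axes from 0) of each gene in the 3 sham and 3 PNX libraries, with circles for the earlier and squares for the later deposit. Glycam1, Chst4 and Fut7 peak in PNX replicate 3, whereas Sele, Selp and Vcam1 are highest in PNX replicates 1 and 2.

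The selectins had the opposite distribution. Selp, which encodes P-selectin of endothelial storage granules and platelets (chromosome 1, 164115264 to 164150026, plus strand, 16 exons), had 936, 863 and 528 counts in sham and 1957, 1696 and 454 in PNX. In CPM these were 12.1, 12.6 and 16.4 in sham and 27.5, 27.0 and 15.9 after PNX. The PNX libraries of the earlier deposit were above all sham libraries, and PNX replicate 3 was just under sham replicate 3. Selp was accordingly 2.21 times higher after PNX in the earlier deposit (2.09 to 2.34), while in the later it was at 0.972 times sham (0.855 to 1.10). In edgeR the log2 fold change was 0.60 (standard error 0.32, edgeR adjusted p = 0.548), or 0.60 under the replicate block (standard error 0.27, edgeR adjusted p = 0.168). With the 6 libraries as separate replicates it was 0.78 (standard error 0.24, edgeR adjusted p = 0.0855). Selp overlaps Gm16587 and Gm16548 on the other strand, and no source states that strand was used in counting.

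Sele, which encodes the cytokine-induced E-selectin (chromosome 1, 164048234 to 164057677, plus strand, 14 exons), behaved like its neighbour. It had 627, 532 and 335 counts in sham and 1026, 900 and 284 in PNX, or 8.13, 7.76 and 10.4 CPM against 14.4, 14.3 and 9.95 CPM. It was 1.81 times higher after PNX in the earlier deposit (1.68 to 1.94) and at 0.958 times sham in the later (0.815 to 1.13), so the groups overlapped. The log2 fold change was 0.42 (standard error 0.27, edgeR adjusted p = 0.615), 0.44 with the replicate block (edgeR adjusted p = 0.212) and 0.57 with 6 separate libraries (edgeR adjusted p = 0.107). DESeq2 on the 6 libraries counts replicates 1 and 2 as independent, and Selp and Sele were higher after PNX in their deposit only. The DESeq2 adjusted p was 0.0175 for Selp and 0.0403 for Sele. Their log2 fold changes of 0.78 and 0.56 are under the study's size threshold.
The summed level of platelet genes lay on the same side of sham as Selp in each deposit. The sum of 9 platelet genes was 1.40 times sham after PNX in the earlier deposit and 0.903 times in the later, with 44.8 to 67.8 CPM in sham and 61.1 to 64.2 CPM after PNX. All 9 were detected in sham, and 1 of them, Pf4, was called in the blocked fit (log2 fold change 1.10, edgeR adjusted p = 0.00813). Unlike the sum, Pf4 was higher after PNX in the later deposit too, at 8.33 CPM in sham and 14.6 CPM after PNX, and Treml1 and Gp9 were not lower there. Their part in the Selp result was not tested. Among 5 venous endothelial genes, the vessel type in which selectins are best known, the sum, most of it Vwf, was at 0.981 and 0.893 times sham in the earlier and later deposit. Ackr1, a chemokine receptor of venules, was higher in all PNX libraries, at 0.597 to 1.06 CPM in sham and 1.88 to 2.31 CPM after PNX (log2 fold change 1.33, edgeR adjusted p = 0.247, and 0.0172 with the block), and it was called in the fits with 6 libraries by the blocked edgeR test and DESeq2. Its part in the selectin results was not tested.

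Vcam1, the receptor for the integrin of Itga4 and Itgb1 (chromosome 3, 116109949 to 116129688, minus strand, 9 exons), had 6485, 5850 and 2638 counts in sham and 8169, 7234 and 2339 after PNX. The levels were 84.1, 85.3 and 81.9 CPM in sham and 115, 115 and 81.9 CPM after PNX. In the earlier deposit PNX exceeded sham by 1.36 times (1.33 to 1.39), and in the later the ratio was 1.00 (0.947 to 1.06). The log2 fold change was 0.24 (standard error 0.20, edgeR adjusted p = 0.708), or 0.23 under the replicate block (edgeR adjusted p = 0.212). Selp, Sele and Vcam1 therefore shared a pattern, higher after PNX in the deposit of replicates 1 and 2 and at the sham level in that of replicate 3. Fibroblast and mesothelial genes, from cells that can also express Vcam1, were higher after PNX in both deposits, at 3.23 and 3.48 times sham over 8 genes, and macrophage genes at 2.65 and 1.59 times over 8 genes. Their part in the Vcam1 result was not tested. Vcam1 overlaps the antisense gene Gm43109.

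The most abundant receptors had the log2 fold changes nearest 0. Icam1, a receptor for the integrin LFA-1 that inflammation can raise (chromosome 9, 21015985 to 21028817, plus strand, 7 exons, overlapping the antisense gene Gm47079), measured 269, 270 and 251 CPM in the sham libraries, against 276, 279 and 207 CPM after PNX. The ratio of PNX to sham was 1.03 in the earlier deposit (1.01 to 1.04) and 0.828 in the later (0.800 to 0.856). Icam2, the constitutive endothelial ligand of LFA-1 (chromosome 11, 106377656 to 106388075, minus strand, 4 exons), measured 314, 313 and 211 CPM in the sham libraries, against 299.9, 292 and 223 CPM after PNX, with ratios of 0.945 (0.932 to 0.957) and 1.06 (1.03 to 1.10). For both genes the deposits lay on opposite sides of 1. Their log2 fold changes were −0.10 (standard error 0.19, edgeR adjusted p = 0.895) and −0.01 (standard error 0.26, edgeR adjusted p = 0.996). Icam2 was lower in the later deposit, at 0.670 times the earlier one in sham (0.653 to 0.687) and 0.753 times after PNX (0.733 to 0.773).

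**Figure D3:**
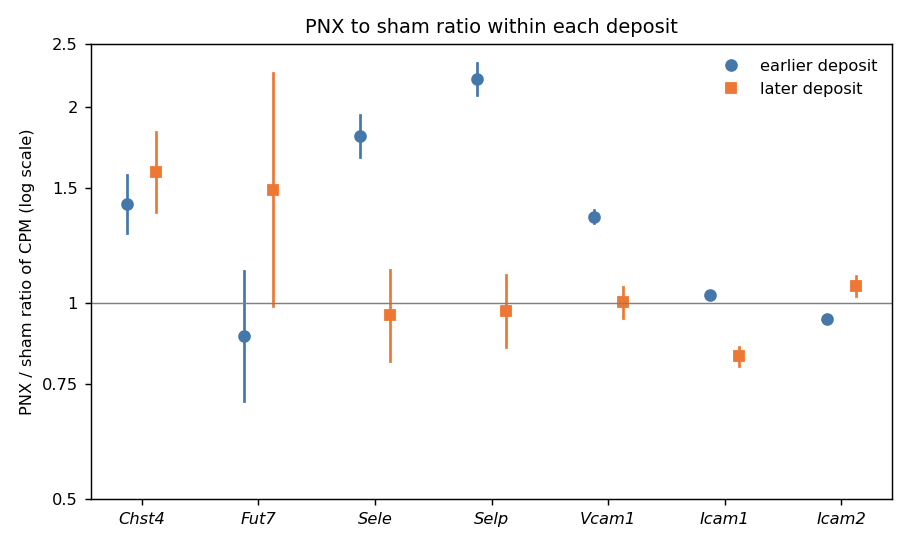
Ratio of PNX to sham CPM (log axis) of the 7 genes with enough counts, within the earlier deposit (circles) and the later deposit (squares), with exact 95% intervals for counting error only. Selp and Sele are at 2.21 and 1.81 in the earlier deposit and near 1 in the later, while Chst4 is above 1 in both.

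Of the genes other than Glycam1, 7 of 8 passed the filter on low counts, all but Madcam1, and 0 of 7 were called after PNX in edgeR's quasi-likelihood test with 4 samples. The background was likewise 0.0% of 16536 genes, and at an unadjusted p under 0.05 it was 0 of 7 genes against 12.7%. With the replicate block 0 of 7 were called, against 3.89% of all genes, and 1 of 7 had an unadjusted p under 0.05, against 35.9%. With 6 separate libraries edgeR called 0 of 7 (background 2.56%), and 2 of 7, Selp and Sele, had an unadjusted p under 0.05 (29.6%). DESeq2 called 0 of 7 with 4 samples (3.24%), 0 of 7 with 6 libraries (5.37%) and 0 of 7 with the block (5.05%), and limma-voom called 0 of 7 (0.0%). In DESeq2 with 6 libraries, 2 of 7, Selp and Sele, had an adjusted p under 0.05 (20.2%). With 6 libraries and the block edgeR called 0 of 7 (6.79%), and 4 of 7, Chst4, Selp, Sele and Vcam1, had an adjusted p under 0.05 (52.0%). For none of the 7 did the 3 PNX libraries lie all above or all below the 3 sham libraries, compared with 18.8% and 18.0% of all genes. The median log2 fold change was 0.26 over the 7 genes and −0.01 over all genes tested. The smallest p that a two-sided exact permutation test can give with 2 samples against 2 is 0.333.

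**Figure D4:**
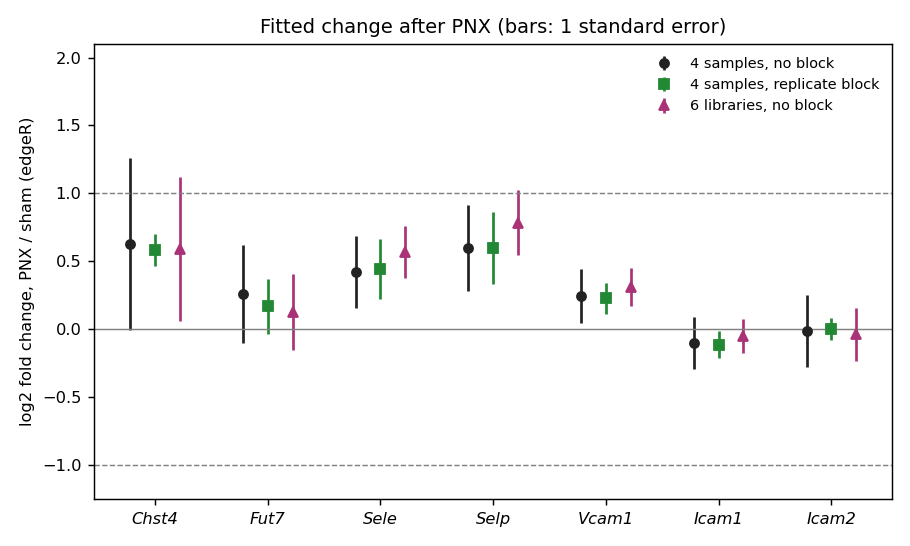
edgeR log2 fold changes of PNX over sham for the 7 genes in 3 fits, with bars of 1 standard error and dashed lines at the study's size threshold. The points lie between −0.11 and 0.78, inside the dashed lines.

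The surrounding pathway was examined with 6 lists of 81 genes in all, of which 77 were tested. With 4 samples and no block 0 were called in edgeR (background 0.0%), and 13 of 77 had an unadjusted p under 0.05, against 12.7% of all genes. With the replicate block 5 of 77 were called, 3 higher and 2 lower, against 3.89% of all genes. They were the chemokines Cxcl13, Ccl2 and Cxcl1 and the lymphocyte receptors Cxcr5 and Ccr7. Of these, Cxcr5 and Ccl2 were named after their values were seen.

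Among 9 core proteins that can carry selectin ligands, 0 were called in either fit (median log2 fold change 0.07). The highest was Cd34, a sialomucin of endothelium and progenitor cells, at a log2 fold change of 0.87 ± 0.17 (SE) with edgeR adjusted p = 0.164 (0.00647 with the block). Its 3 PNX libraries all lay above the sham libraries. The lowest was Spn, a leukocyte sialomucin, at −0.73 (edgeR adjusted p = 0.771, and 0.00597 with the block). Cd34 and Spn thus passed the p threshold in the blocked fit and not the size threshold. Of 12 tested enzymes that build selectin ligands 0 were called in either fit (median −0.07), between Galnt1 at 0.50 and Fut4 at −0.38.
Of 18 other endothelial adhesion and transmigration genes 0 were called in either fit (median 0.04). Aoc3, the vascular adhesion protein and amine oxidase, was highest at 0.93 (edgeR adjusted p = 0.351, and 0.0163 with the block) and was called higher with 6 libraries by the blocked edgeR test and by DESeq2, and Cd300lg, a mucin-like receptor of capillary and venular endothelium, was lowest at −0.68 (edgeR adjusted p = 0.169, and 0.00304 with the block). The latter passed the p threshold in the blocked fit and not the size threshold.

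On the leukocyte side, 0 of 9 counter-receptor genes were called in either fit (median −0.02). Itgam, a myeloid integrin chain that pairs with Itgb2 and binds ICAM-1, was highest at 1.18 (edgeR adjusted p = 0.521, and 0.0281 with the block), and it was called higher by the blocked edgeR test with 6 libraries. Itgal, the LFA-1 chain, was lowest at −0.54 (edgeR adjusted p = 0.822, and 0.0116 with the block). In the high endothelial venule and lymphoid list, 1 of 11 tested genes was called higher and 2 were called lower in the blocked fit (median 0.21 without and 0.24 with the block). Cxcl13, the B cell attracting chemokine, had 118, 100 and 93 counts in sham and 874, 737 and 803 in PNX, which gave a log2 fold change of 3.23 ± 0.58 (SE) with edgeR adjusted p = 0.140 (0.000229 with the block). Ccr7, which guides lymphocytes and dendritic cells to lymphoid tissue, was lowest at −1.08 (edgeR adjusted p = 0.512, and 0.00240 with the block). Cxcr5, the receptor of CXCL13 on B cells, was at −1.003 (edgeR adjusted p = 0.225, and 0.00516 with the block), and B cell markers were lower with it, as given above, as was the summed level of 6 T cell genes, at 0.728 and 0.719 times sham in the earlier and later deposit.

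In the inflammatory list, which holds cytokines that induce E-selectin, VCAM-1 and ICAM-1 and their signalling, 2 of 18 genes were called higher in the blocked fit and 0 lower (median 0.02 without and 0.05 with the block). They were the chemokines Cxcl1, with a log2 fold change of 2.46 (edgeR adjusted p = 0.156, and 0.00139 with the block), and Ccl2, at 1.75 (edgeR adjusted p = 0.0834, and 0.000292 with the block). Klf2, a flow-induced factor that restrains adhesion receptor expression, was lowest at −0.51 (edgeR adjusted p = 0.369, and 0.0283 with the block). The sums of the other marker lists were at 1.11 and 0.884 times sham for neutrophil genes, 1.42 and 0.793 times for adipocyte genes and 0.663 and 1.10 times for lymphatic endothelial genes, in the earlier and later deposit respectively. S100a9 was the largest part of the neutrophil sum, at 157 CPM in sham replicate 3 and 116 CPM in PNX replicate 3. In that deposit S100a8, Csf3r and Cxcr2 were also lower after PNX, whereas Mmp8, Ltf, Camp and Ngp were higher. In the earlier deposit Ltf, Camp and Ngp were lower after PNX. Mmp8 was higher in all PNX libraries and was called in the blocked fit. Single genes dominated the adipocyte and lymphatic sums. Cidec, at 14.9 to 29.0 CPM in sham and 13.0 to 20.4 CPM after PNX, made up most of the adipocyte sum, whereas Adipoq, Cfd and Ucp1 were called higher in the blocked fit and the list median log2 fold change was 3.26 without the block. Lyve1 was the largest part of the lymphatic sum in sham replicates 1 and 2, at 643 and 637 CPM against 288 and 291 CPM in the same PNX replicates, while Prox1 and Pdpn were higher after PNX in both deposits.

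**Figure D5:**
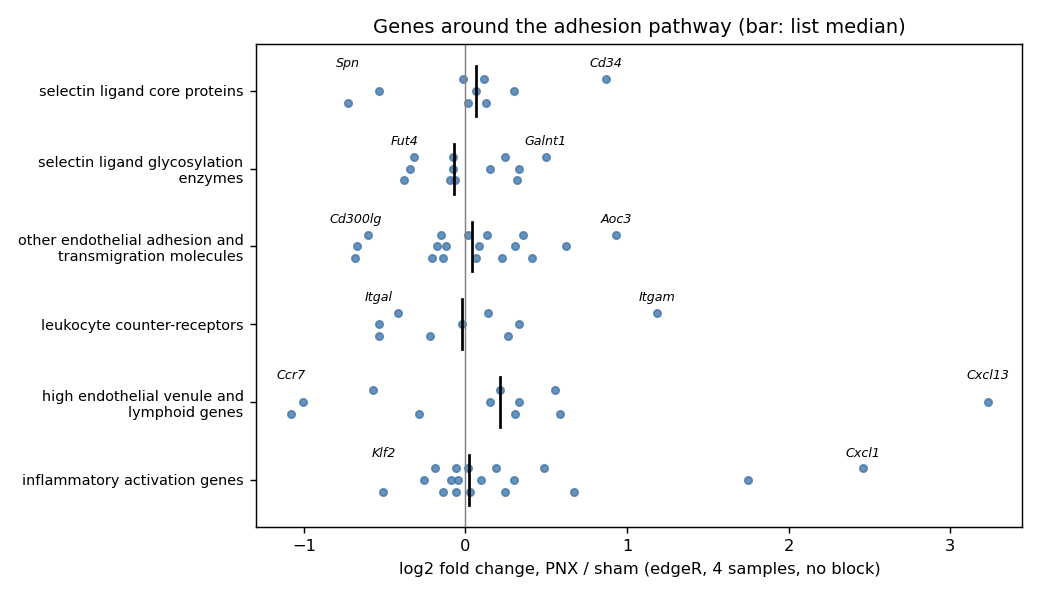
edgeR log2 fold changes (4 samples, no block) of the 77 tested genes in the 6 pathway lists, 1 point per gene, with a bar at each list's median. The medians lie between −0.07 and 0.21, and the chemokine genes Cxcl13 and Cxcl1 lie farthest to the right at 3.23 and 2.46.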

How the data were processed

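Bulk RNA of lung ECs was measured in 3 sham and 3 PNX libraries. The authors used the Basepair platform to align stranded mRNA reads to mm10 and count them. The submitters' processing notes name STAR without version or role, while counting rule, annotation release and strand use were not given in the sources used here. For each RefSeq transcript the authors deposited whole-number counts, FPKM and TPM. The deposited counts (33068 rows) were tested, the deposited TPM served for levels per length, and the deposited FPKM values were not used. If reads shared by transcripts were counted on each, the totals exceed the fragments sequenced.

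Rows of a symbol with identical counts were counted once and the rest summed. A gene is described by its row with the highest total. Replicates 1 and 2 of a group were summed after the chi-square comparison (genes with at least 20 counts). Tests used edgeR 4.0.16 in R 4.3.3 (TMM, filterByExpr, quasi-likelihood F test) with Benjamini-Hochberg adjustment across the genes that passed the filter. DESeq2 1.42.0 and limma-voom (limma 3.58.1) were alternatives. Calls required adjusted p below 0.01 and a log2 change larger than 1 in either direction. Standard errors equal the log2 fold change divided by the square root of F, an approximation. Ratios within a deposit carry exact Clopper-Pearson 95% intervals.

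The deposits, as read from the re-used mark in the labels, pair the groups. Over 13092 genes, deviations from the group means correlated at 0.724, 0.721 and 0.784 between same-numbered libraries. Replicates 1 and 2 share a deposit and are near-identical, so these values largely repeat the comparison of replicate 3 with the rest. They do not show a pairing by number. Genes were named by a rule: all 9 genes, the 5 genes with at least 50 counts most like Glycam1, and from each pathway list the called genes (up to 4) and its highest and lowest log2 fold change. Other list and marker genes were named after their values were seen. The genes, the 6 pathway lists and the 11 marker lists were chosen with earlier results of these data known. The fits were also run on simulated counts with the same deposit difference in both groups. That setting does not cover genes such as Selp, whose ratio of PNX to sham differed between deposits.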

Additional observations from a re-analysis of the deposited data

How the results depend on the processing

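None of the 7 tested adhesion genes was called under any of the 25 alternatives. However, 16 of these called 0 genes of all tested, so no adhesion gene could be called there. In the fits with calls whose background is given above, 2.56% to 6.79% of all genes were called. The number of all genes called, 0 in 4 samples without a block, was 643 with the replicate block in 4 samples and 1099 with it in 6 libraries, 415 with 6 separate libraries, 580, 920 and 826 with DESeq2 (4 samples, 6 libraries, block), and 727, 639 and 654 with the block and the highest row, DESeq2 size factors or total count only. These 3 combinations were chosen after seeing the data. In the same order, 5, 7, 1, 3, 5, 5, 4, 5 and 4 pathway genes were called. The cause of these differences was not tested. Replicates were left out only in the fit without the block, which calls 0 genes, so the range of 0 to 0 calls there says nothing about the blocked calls.

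Sele and Selp kept their direction under all 25 alternatives, of which the change of p threshold reuses the same fold change. None of these fitted the later deposit alone, where Sele was at 0.958 and Selp at 0.972 times sham. When single replicates were left out, log2 fold changes ranged from 0.40 to 0.66 for Sele, 0.58 to 0.93 for Selp, 0.22 to 0.47 for Vcam1, −0.23 to 1.35 for Chst4, −0.27 to 0.36 for Fut7, −0.15 to 0.095 for Icam1 and −0.27 to 0.18 for Icam2. The last 4 were reversed without PNX replicate 3, a fit that sets the earlier PNX deposit against sham of both deposits. With replicates 1 and 2 of PNX left out together, Sele fell to 0.14, Selp to 0.17 and Vcam1 to −0.0087, and Icam2 was 0.31 without sham replicates 1 and 2. Icam2, at −0.01, was 0.0011 with the replicate block, 0.00051 with DESeq2 and the block, 0.0091 with limma-voom, and 0.0055, 0.00045 and 0.0079 with the block and the highest row, DESeq2 size factors or total count only. With 2 samples per group, 1 from each deposit, a lone sample left in a group is assumed to vary like the other group. Depth limits Glycam1 and Madcam1, whose sham levels are known only as upper limits.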

Other observations

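Of the 16163 genes with at least 50 counts, 2 had 0 counts in all 3 sham libraries, Glycam1 and Adamts16, which encodes a secreted metalloprotease. Adamts16 had 81, 64 and 54 counts in PNX replicates 1, 2 and 3, so it was present in every PNX library, whereas Glycam1 had 6, 5 and 147.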
